A study of Mus musculus with 48 samples.

Results

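Spaceflight was compared with ground control in the Cornu Ammonis 1 area of the hippocampus (CA) in mice that had all received BuOE. The members are 6 areas of interest (AOIs) of 48 in the series, chosen by region and group label, and the comparison ran over all 15782 genes of the CA table without the negative-control probe. FLT-BuOE is 3 male C57BL/6 mice, 10 weeks old, kept for 35 days on the International Space Station. GC-BuOE is 3 mice of the same strain, sex and age kept on the ground in flight hardware cages, on a schedule that began 3 days later. Both groups were given 1 mg/kg BuOE under the skin from 7 days before launch and weekly thereafter, so BuOE is common to every value of this contrast. Flown animals were in the laboratory no later than 20 h after splashdown, so the values were taken after flight and return. Each group was mounted on a slide of its own, 3 mice to the slide, and slide and group therefore cannot be told apart. The saline groups of the same flight (FLT-SAL and GC-SAL, 3 mice each) and the dentate gyrus (DG) of the same BuOE mice served for comparison.

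BuOE (MnTnBuOE-2-PyP5+) is a manganese porphyrin with the activity of superoxide dismutase, given to lower oxidative damage. CA1 pyramidal neurons receive input from CA3 and carry the main output of the hippocampus, and they are known for activity-dependent transcription. Synaptic activity in these cells induces immediate early genes such as Arc, and their clock genes follow the time of day. GeoMx digital spatial profiling counts probes released by light from a marked area of tissue, so an AOI holds all cells of that area, and fewer cells of a type cannot be distinguished from less RNA per cell.

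The AOIs carried the markers of their region. Wfs1, a CA1 pyramidal marker, had Q3-normalized values of 70.4 to 108 in the 6 CA AOIs and 21.1 to 36.7 in the 6 DG AOIs of these mice, while Prox1, which marks dentate granule neurons, had 24.0 to 41.5 in CA and 88.4 to 149 in DG. Total probe counts were 400989 to 503039 in FLT-BuOE and 322629 to 649514 in GC-BuOE. The negative-control value was 16.1 to 18.8 in flight and 18.9 to 20.9 on the ground, and the AOIs covered 124517 to 142813 square micrometres in flight and 151322 to 181286 on the ground. Neither measure overlapped between the groups, and their part in the results was not tested. Among the 6223 genes with a mean below 1.5 times background, 111 were higher and 303 lower in flight at an unadjusted p below 0.05. Among the other 9559 genes, 434 were higher and 339 lower.

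Few genes passed the test. In the limma fit, 7 of 15782 genes (0.0444%) had a Benjamini-Hochberg adjusted p below 0.05 and a change beyond 1.5-fold. Of these, 3 (0.019%) were higher in flight, Dbp, Cpne7 and Kcnt1, and 4 (0.0253%) were lower, Arc, Hspa8, Slc4a2 and Elof1. Without adjustment 1187 genes (7.52%) had a p below 0.05, 545 (3.45%) higher and 642 (4.07%) lower, and 52.3% of all genes had a difference below 0. For 1788 genes (11.3%) the values of the 3 flight mice did not overlap those of the 3 ground mice, with flight above in 803 (5.09%) and below in 985 (6.24%). The log2 values of 2 mice correlated across the 9431 genes above 1.5 times background in the 12 CA AOIs, with Pearson's r between 0.752 and 0.821 for flight against ground, 0.803 to 0.822 within flight and 0.778 to 0.836 within ground. Mice of different groups were therefore about as alike as mice of the same group. The number of calls rested on single mice, since 1 gene, Arc, was left without FLT-BuOE mouse 1, without FLT-BuOE mouse 3 or without GC-BuOE mouse 1, 3 were called when FLT-BuOE mouse 2 was left out and 12 when GC-BuOE mouse 3 was. Since the saline mice share the fit, leaving out GC-SAL mouse 2 also moved the count, to 11. Of 12 such refits Dbp and Cpne7 kept their call in 8 and Hspa8 in 7. DESeq2 on the counts called Arc alone, and edgeR called 20 genes including all 7. Among the 20 were Elof1, Tectb, Lyrm7, Fzd9 and Egr4, in each of which 1 AOI stood at more than 3 times the next highest in CA. Limma without its mean-variance trend called none, with 1099 genes at an unadjusted p below 0.05.

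**Figure D1:**
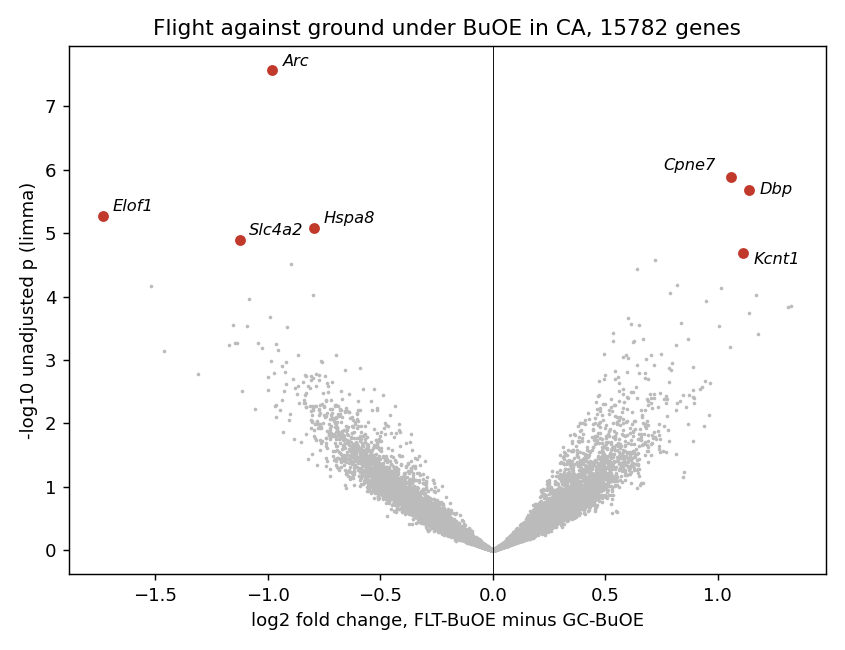
Log2 fold change of FLT-BuOE against GC-BuOE in CA (horizontal axis) and the negative log10 of the unadjusted limma p (vertical axis) for 15782 genes, 1 point each. The 7 called genes are in red and named, and Arc stands highest at a log2 fold change of -0.98.

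Arc, which encodes a cytoskeleton-associated protein needed for long-lasting synaptic plasticity, fell in flight. Its Q3-normalized value was 121, 119 and 122 in the 3 FLT-BuOE mice and 232, 249 and 236 in the 3 GC-BuOE mice. The groups stood far apart, with little spread within each. The log2 fold change was -0.98 ± 0.16 (moderated limma SE, 3 mice a group), with a 95% interval from -1.29 to -0.67. The limma Benjamini-Hochberg adjusted p was 0.000419. The gene lies on chromosome 15 (GRCm38, 74669083 to 74672570, minus strand). The call held without each mouse in turn.

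Of the immediate early genes, whose transcripts appear within minutes of neuronal activity, 32 were measured and 1, Arc, was called. At an unadjusted p below 0.05, 10 of the 32 were lower and 1 higher in flight (34.4% of the list against 7.52% of all genes), and the list's median log2 fold change was -0.23 against -0.01 over all genes. Egr3, a zinc-finger transcription factor, had values of 85.6, 62.3 and 87.0 in flight and 88.5, 196 and 116 on the ground. Its groups just failed to overlap, with a log2 fold change of -0.70 ± 0.20 and an adjusted p of 0.251 with limma (Benjamini-Hochberg). Egr1, another factor of that family, was at 81.4, 69.7 and 76.6 in flight and 103, 140 and 104 on the ground. All 3 flight values lay below the ground values here too, at -0.59 ± 0.18 on the log2 scale (limma, Benjamini-Hochberg adjusted p = 0.318). Dnajb5, a cochaperone gene, and Homer1, which yields both a synaptic scaffold and a short activity-induced form, differed by -0.51 and -0.60 log2, with groups that did not overlap. The one member that was higher at that threshold, Egr4 (named after its values were seen), owed this to 1 mouse: 128, 28.2 and 34.8 in flight against 35.8, 26.7 and 31.4 on the ground. Fos, Npas4 and Bdnf, which answer to activity as well, had log2 differences of 0.22, 0.06 and -0.01 and were likewise picked after their values were seen. Leaving out the members below 1.5 times background left 25, of which 16 were lower, with a median of -0.23.

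**Figure D2:**
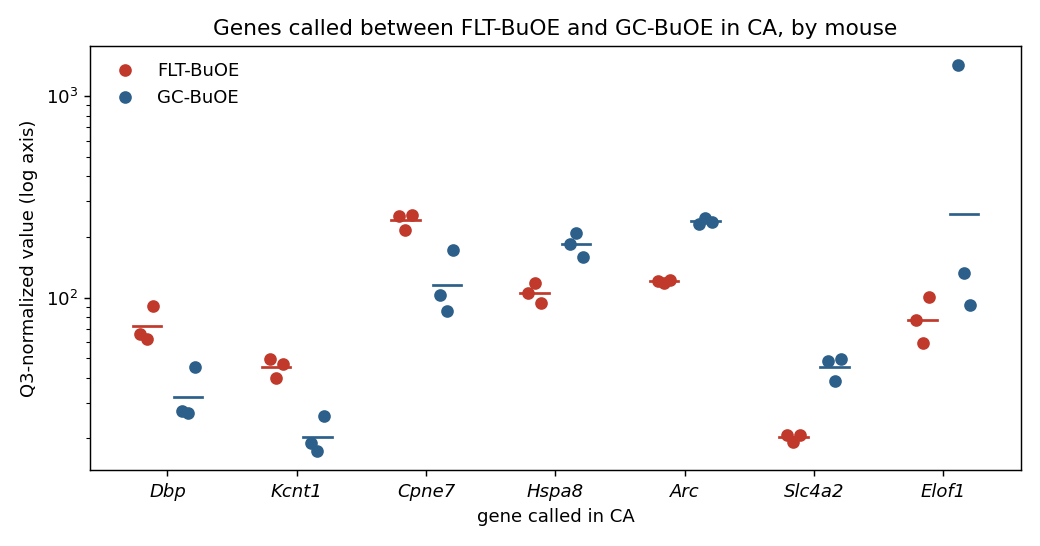
Q3-normalized value (log axis) of the 7 called genes in each of the 3 FLT-BuOE mice (red) and 3 GC-BuOE mice (blue), with the geometric mean of each group as a line. The groups are separate for 6 genes and overlap for Elof1, where GC-BuOE mouse 1 stands at 1422.

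Dbp, a transcription factor of the PAR bZIP family whose abundance follows the circadian cycle, rose in flight. It was at 66.2, 62.3 and 90.5 in the FLT-BuOE mice and at 27.4, 26.7 and 45.4 in the GC-BuOE mice. Every flight mouse was above every ground mouse, although mouse 3 was the highest in both groups. The log2 fold change was 1.14 ± 0.22 (95% interval 0.70 to 1.58), with an adjusted p of 0.0110 (limma, Benjamini-Hochberg). The gene lies on chromosome 7 (GRCm38, 45705088 to 45710203, plus strand).

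Of 21 clock genes measured, Dbp was the 1 called, and 4 had an unadjusted p below 0.05, 2 in each direction (19.0% against 7.52% of all genes). Nr1d1, which encodes the repressor REV-ERB alpha, was at 71.8, 56.3 and 55.7 in flight and 35.8, 36.0 and 35.7 on the ground. The groups did not overlap and the ground mice were nearly equal, with a log2 difference of 0.75 ± 0.21 (limma, Benjamini-Hochberg adjusted p = 0.251). Nfil3, a repressor that binds the same DNA element as Dbp, was at 16.6, 23.7 and 17.4 in flight and 27.4, 46.7 and 38.9 on the ground. It stood lower in all flight mice, by -0.92 ± 0.27 on the log2 scale, and missed the threshold with a limma Benjamini-Hochberg adjusted p of 0.281. Its flight values of 16.6 and 17.4 lay within the range of the negative control in flight (16.1 to 18.8). Arntl, which encodes the activator BMAL1, had 22.1, 20.8 and 31.3 in flight and 25.3, 42.7 and 42.2 on the ground, and these overlapped (log2 difference -0.54, adjusted p = 0.628 by limma with Benjamini-Hochberg adjustment). The list's median was 0.06, so the clock genes did not move one way. The hour at which each mouse was sampled was not used here, and its part in these values was not tested.

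The same genes in the other areas of these mice gave a mixed picture. The plain difference of mean log2 values for Dbp was 0.53 in DG, 0.48 in FCT and 0.71 in CT, the latter 2 being the other regions profiled, and the groups did not overlap in FCT and CT. Nr1d1 differed by 0.39, 0.13 and 0.60 in the same order. For Nfil3 the differences were 0.08, 0.22 and -0.37, so CA and CT had the same sign.

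The promoter of Nfil3 holds a match to the element bound by REV-ERB and ROR receptors (TAGGTCA, searched on both strands in the 250 bases upstream of each RefSeq start). It is shown because Nr1d1, whose product binds this element, and Nfil3 were the 2 clock genes after Dbp with the smallest p. They differed in opposite directions, and the promoter was thus chosen after their values were seen. Capitals mark the match, which reads on the opposite strand and ends 5 bases before the start site.
Nfil3: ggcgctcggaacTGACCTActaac
This stretch is chr13:52981040-52981063 (GRCm38.p6, minus strand, RefSeq). Of 32851 promoters 2.23% hold this element in the same window, and of 18 clock genes with a promoter sequence Nfil3 is the 1 that does. The match is a description of the letters and says nothing of binding in these cells.

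Hspa8, the constitutive cytosolic HSP70 chaperone that also uncoats clathrin vesicles at synapses, fell in flight. Its values were 105, 119 and 94.0 in the FLT-BuOE mice and 185, 209 and 159 in the GC-BuOE mice. The highest flight value lay well under the lowest ground value. The log2 fold change was -0.79 ± 0.16 (95% interval -1.12 to -0.47), and the Benjamini-Hochberg adjusted p of limma was 0.0264. Hspa8 lies on chromosome 9 (GRCm38, 40800984 to 40810087, plus strand). In the other areas its plain log2 difference was -0.64 in DG, -0.47 in FCT and -0.31 in CT, and the groups did not overlap in any of the 3.

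Of 27 heat shock and chaperone genes measured, 1 was called, 6 were lower and 1 higher at an unadjusted p below 0.05 (25.9% against 7.52% of all genes), and 20 lay below 0. The median log2 fold change was -0.23. Dnajb5 belongs to this list and to the immediate early list, and is counted among the lower genes of both. Cryab, a small heat shock protein of glia and muscle, was at 44.2, 35.6 and 27.8 in flight and 56.9, 60.0 and 49.8 on the ground. Its groups did not overlap, with -0.64 ± 0.21 on the log2 scale and an adjusted p of 0.413 (limma, Benjamini-Hochberg). Ahsa1, which activates the HSP90 ATPase, differed by -0.48 with separate groups. The higher member was Hspa12a (named after its values were seen), a distant HSP70 relative, at 0.45. Among the 24 members at or above 1.5 times background 18 lay below 0, with a median of -0.24.

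The genes of the unfolded protein response, which raises chaperones and folding enzymes of the endoplasmic reticulum (ER), lay on the same side. Of 27 measured, none was called, 6 were lower and none higher at an unadjusted p below 0.05 (22.2% against 7.52%), and 22 lay below 0, with a median of -0.23. This list shares Hspa5 and Hsp90b1 with the chaperone list. Pdia6, a protein disulfide isomerase, was at 46.9, 50.4 and 38.3 in flight and 86.4, 90.7 and 76.8 on the ground. Its groups stood well apart (log2 difference -0.90 ± 0.20), and limma with Benjamini-Hochberg adjustment placed it just past the threshold at 0.0533, while edgeR on the counts called it with an adjusted p of 0.0239. Sdf2l1, an ER chaperone component, was at 16.6, 19.3 and 22.6 in flight and 33.7, 40.0 and 42.2 on the ground. These groups were separate too, at -0.96 ± 0.27 with a limma Benjamini-Hochberg adjusted p of 0.235. The flight values of Sdf2l1 lay just above the negative control of the same AOIs (16.1, 17.4 and 18.8). Pdia3, a further disulfide isomerase, had 52.4, 63.7 and 60.9 in flight against 84.3, 84.0 and 85.5 on the ground. Xbp1, a transcription factor spliced in the response, had 33.1, 31.1 and 31.3 against 56.9, 53.4 and 43.3. Both were lower in every flight mouse, by -0.52 and -0.66 log2, and both missed the threshold with adjusted p of 0.447 and 0.453 (limma, Benjamini-Hochberg). Among the other areas, the Pdia6 difference was -0.62 in DG, -0.54 in FCT and -0.37 in CT, and Pdia3 differed by -0.68, -0.69 and -0.46 with groups that did not overlap in any of them.

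Many promoters of this list share the ER stress element, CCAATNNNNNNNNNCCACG, which binds NF-Y at one end and ATF6 or XBP1 at the other. It was searched on both strands in the 250 bases upstream of the RefSeq start and occurred in 7 of the 24 listed genes with a promoter sequence, against 37 of 32851 promoters (0.113%). The list was made of known response genes, for which this element is known, so the share describes the list and not the data. The 7 are shown to let their element and their values be read together, with the match in capitals and 12 bases on either side. Calr and Creld2 carry the match on the opposite strand.
Pdia6: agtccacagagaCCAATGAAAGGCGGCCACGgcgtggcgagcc
Hspa5: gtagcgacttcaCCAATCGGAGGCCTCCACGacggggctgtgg
Calr: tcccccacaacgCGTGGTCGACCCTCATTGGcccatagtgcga
Hsp90b1: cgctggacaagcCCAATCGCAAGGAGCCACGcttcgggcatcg
Dnajc3: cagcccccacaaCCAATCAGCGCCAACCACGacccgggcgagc
Canx: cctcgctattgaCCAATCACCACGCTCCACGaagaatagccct
Creld2: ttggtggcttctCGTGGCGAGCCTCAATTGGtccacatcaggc
In this order they are chr12:17266479-17266521, chr2:34772013-34772055, chr8:84847063-84847105, chr10:86705626-86705668, chr14:118937815-118937857, chr11:50325788-50325830 and chr15:88819508-88819550 (GRCm38.p6, RefSeq), with Pdia6, Hspa5, Dnajc3 and Creld2 on the plus strand and the other 3 on the minus strand.

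The 7 genes with the element all lay below 0 in flight, with no call among them, and their differences ran over a wide range. Pdia6 stood at -0.90. Hspa5, the main ER chaperone (BiP), was at 30.4, 22.2 and 17.4 in flight and 31.6, 33.4 and 37.9 on the ground. Its log2 difference was -0.57, with groups that just failed to overlap. The value of 17.4 lay below the negative control of the same AOI (18.8). Calr, Hsp90b1, Dnajc3, Canx and Creld2 stood at -0.35, -0.28, -0.18, -0.18 and -0.13, none with an unadjusted p below 0.05. For Sdf2l1, Pdia3 and Xbp1, which were lower at that threshold, no match was found, and 24 of the 27 listed genes had a sequence to search. The part of the element in these differences was not tested.

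**Figure D3:**
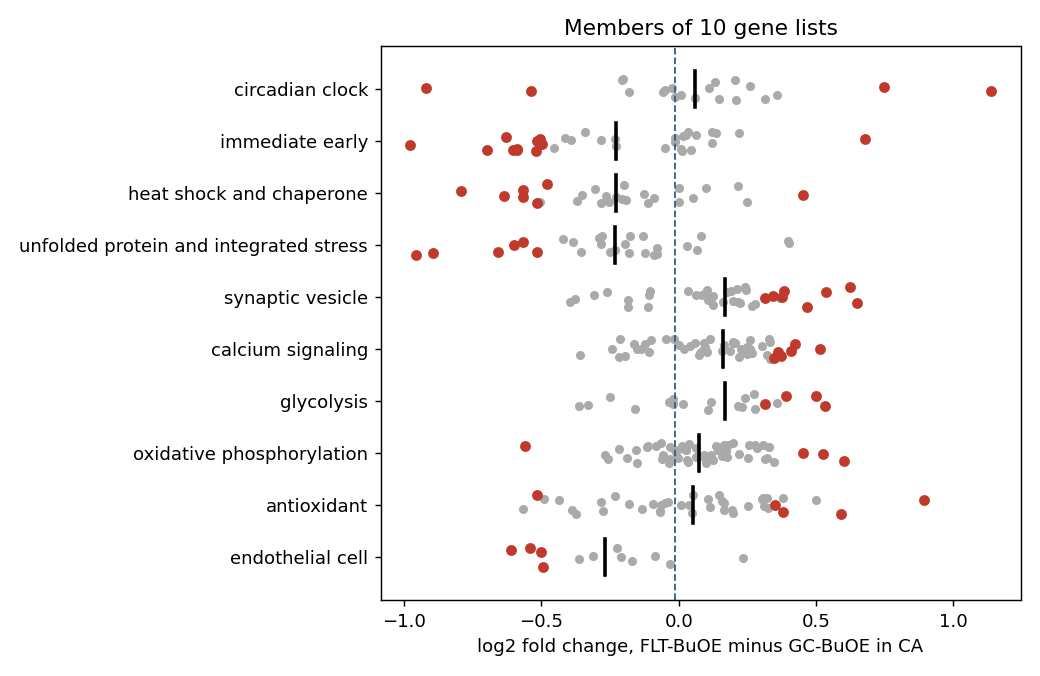
Log2 fold change of FLT-BuOE against GC-BuOE in CA for the measured members of 10 gene lists, 1 point a gene, in red where the unadjusted limma p was below 0.05. Black bars are list medians, from -0.27 (endothelial cell) to 0.17 (synaptic vesicle and glycolysis), and the dashed line is the median of all genes at -0.01.

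Cpne7, a calcium-dependent membrane-binding protein of the copine family, rose in flight. Its values were 254, 216 and 256 in the FLT-BuOE mice and 103, 85.4 and 173 in the GC-BuOE mice. All flight mice were above all ground mice, among which mouse 3 was the highest. The log2 fold change was 1.06 ± 0.20 (95% interval 0.66 to 1.46) and the adjusted p 0.0103 (limma, Benjamini-Hochberg). It lies on chromosome 8 (GRCm38, 123117374 to 123135182, plus strand).

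Kcnt1 and Slc4a2, both of membrane transport, were called in opposite directions. Kcnt1, a sodium-activated potassium channel (chromosome 2, 25863734 to 25918273, plus strand), was at 49.7, 40.0 and 47.0 in flight and 19.0, 17.3 and 26.0 on the ground. The flight mice were all above the ground mice, at a log2 fold change of 1.11 ± 0.24 with an adjusted p of 0.0466 (limma, Benjamini-Hochberg). In GC-BuOE mice 1 and 2 Kcnt1 lay below the negative control of the same AOI (19.4 and 18.9). Slc4a2, a chloride-bicarbonate exchanger (chromosome 5, 24423837 to 24440950, plus strand), was at 20.7, 19.3 and 20.9 in flight and 48.4, 38.7 and 49.8 on the ground. The flight values lay close together and near the negative-control level, at -1.12 ± 0.24 with a limma Benjamini-Hochberg adjusted p of 0.0339. Both are weakly expressed, at 1.83 and 1.74 times background on average. Each lost its call without any 1 of several mice: 4 of 12 refits without 1 mouse kept Kcnt1 and 6 of 12 kept Slc4a2.

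Elof1, a transcription elongation factor (chromosome 9, 22112989 to 22117172, minus strand), had the largest fitted change among the calls, and 1 AOI decided it. The ground values were 1422, 132 and 91.9, while the flight mice had 77.3, 59.3 and 101. The groups overlapped. The log2 fold change of -1.73 ± 0.35 (limma, Benjamini-Hochberg adjusted p = 0.0211) became -0.51 without GC-BuOE mouse 1, with an adjusted p of 0.686 by limma with Benjamini-Hochberg adjustment. Lyrm7, a mitochondrial assembly factor, had the same mouse at 394 against 41.4 and 31.4 in the other ground mice. Across the 12 CA AOIs of the series, 3 genes (Tectb, Elof1 and Lyrm7) had GC-BuOE mouse 1 at more than 3 times the next highest AOI, and no other AOI had more than 1 such gene. What sets these values was not tested.

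Beyond the calls, the genes with the smallest p in each direction had Benjamini-Hochberg adjusted p between 0.0529 and 0.159 in the limma fit, and none of them passed. On the higher side Chd4, a chromatin remodeller, was at 144, 122 and 131 in flight and 73.7, 82.7 and 82.2 on the ground. Camkv, a kinase-like protein of spines, was at 269, 279 and 317 against 162, 207 and 186, and Mdh2, the mitochondrial malate dehydrogenase, was at 105, 94.9 and 92.2 against 52.7, 64.0 and 51.9. In these 3 genes no flight mouse overlapped a ground mouse, and their log2 differences were 0.72, 0.64 and 0.79. Stx3 (a syntaxin of membrane fusion), Ebi3 (a cytokine subunit), Lama2 (a laminin chain), Pcsk2 (a prohormone convertase), Spata7 and Adam17 (a sheddase) differed by 0.82, 1.01, 1.17, 0.95, 1.33 and 1.31, of which Lama2, Spata7 and Adam17 were below 1.5 times background. EdgeR on the counts called Chd4, Camkv, Mdh2, Stx3 and Ebi3.

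On the lower side, after Pdia6 and Lyrm7, stood Scg2, the precursor secretogranin II of neuropeptide vesicles. It was at 41.4, 35.6 and 48.7 in flight and 65.3, 73.4 and 81.1 on the ground, and the groups did not overlap (log2 difference -0.80 ± 0.19). Hba-a1, a hemoglobin chain, was at 45.5, 31.1 and 19.1 in flight and 52.7, 41.4 and 125 on the ground. These values overlapped, and the log2 difference of -1.08 became -0.62 without GC-BuOE mouse 3. Shkbp1, Kif18b (a mitotic kinesin), Cnih1 and Slc39a3 (a zinc transporter) differed by -0.99, -1.15, -1.09 and -0.91 with groups that did not overlap and means of 1.46 to 1.76 times background.

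Synaptic and calcium genes lay slightly above the rest, under saline as well as under BuOE. Of 38 synaptic vesicle genes, none was called, 8 were higher and none lower at an unadjusted p below 0.05 (21.1% against 7.52%), and the median was 0.17. Syn2, which tethers vesicles, was at 93.8, 110 and 104 in flight and 61.1, 66.7 and 67.1 on the ground. Syp, the vesicle protein synaptophysin, was at 243, 256 and 252 against 190, 169 and 160. Sncb, beta-synuclein, was at 113, 110 and 95.7 against 73.7, 69.4 and 62.7. In all 3 the groups were separate, with log2 differences of 0.65, 0.53 and 0.62 and adjusted p of 0.159, 0.190 and 0.213 (limma, Benjamini-Hochberg). Of 50 calcium signaling genes, none was called, 6 were higher and none lower at that threshold (12%), with a median of 0.16. Among them Ryr3, an intracellular calcium release channel, and Cacna1e, a voltage-gated channel subunit, differed by 0.42 and 0.41 with separate groups. Hpca, a calcium sensor abundant in CA1, had 587, 755 and 576 in flight and 482, 616 and 403 on the ground, which overlapped.

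Receptor and scaffold genes had no common direction. Of 34 glutamate and GABA receptor genes 5 were higher and 1 lower at an unadjusted p below 0.05 (17.6% against 7.52% of all genes), and among the higher was Grik5, a kainate receptor subunit, at 0.58. Of 36 postsynaptic genes 2 were higher and 5 lower (19.4%), the lower including Arc, Homer1 and the scaffold genes Shank1 (-0.43) and Dlgap3 (-0.37). Of 22 neuropeptide precursors 3 were lower and none higher (13.6%): Scg2, Nts (-0.89) and Crh (-0.74), the latter 2 at 1.34 and 1.11 times background.

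Genes of energy metabolism and antioxidant defence had no call. Of 20 glycolysis genes 4 were higher and none lower at an unadjusted p below 0.05 (20% against 7.52% of all genes), with a median of 0.17, among them Hk1 (0.53), Pfkm (0.50), Eno2 (0.39) and Pkm (0.31). Of 57 oxidative phosphorylation genes 3 were higher and 1 lower, which at 7.02% is near the 7.52% of all genes. Atp5a1, an ATP synthase subunit, had separate groups at 182, 173 and 157 in flight and 112, 103 and 122 on the ground (log2 difference 0.60, limma Benjamini-Hochberg adjusted p = 0.151). BuOE acts as a superoxide dismutase mimic in every mouse here, and of 41 antioxidant genes 4 were higher and 1 lower in flight (12.2%). Gstp1, a glutathione transferase, was at 99.4, 104 and 92.2 against 59.0, 58.7 and 79.0. Txn2, the mitochondrial thioredoxin, was at 31.7, 32.6 and 34.8 against 12.6, 20.0 and 20.6. These ground values lay within or below the range of the negative control on the ground (18.9 to 20.9). Prdx6, a peroxiredoxin, had 23.5, 29.6 and 31.3 against 50.6, 29.4 and 44.3. The first pair had separate groups and the third overlapped, with log2 differences of 0.59, 0.89 and -0.52 and limma Benjamini-Hochberg adjusted p of 0.251, 0.313 and 0.643.

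The 8 lists that follow held no call, and their shares at an unadjusted p below 0.05 are to be read against 7.52% of all genes. Of the 3 genes of the cold-inducible list (Cirbp, Rbm3 and Rtn3) 2 were higher, the RNA-binding genes Rbm3 and Cirbp at 0.49 and 0.47. Rbm3 was at 123, 88.9 and 101 in flight and 92.7, 69.4 and 61.7 on the ground. Those values overlapped in CA, while in DG, FCT and CT the Rbm3 differences were 0.68, 0.70 and 0.59 with separate groups. Of 22 glucocorticoid-responsive genes 1 was higher (4.55%), Mt1, a metallothionein, at 0.38. Of 55 VEGF signaling genes 3 were higher and 5 lower (14.5%), and of 31 cytoskeleton genes 5 were higher and none lower (16.1%), Map4 foremost at 0.56. Cytosolic ribosomal protein genes had 2 higher and 2 lower of 74 (5.41%), extracellular matrix genes 2 and 1 of 35 (8.57%), and apoptosis and p53 targets none and 1 of 24 (4.17%). Of 28 inflammation and interferon genes none had an unadjusted p below 0.05 in either direction.

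Markers of other cell types were examined because an AOI mixes cells. Of 12 endothelial markers 11 lay below 0 and 4 (Itm2a, Flt1, Ptprb and Egfl7) were lower at an unadjusted p below 0.05 (33.3%, against 4.07% lower and 7.52% in either direction of all genes). Their summed level was 369 to 432 in flight and 467 to 490 on the ground, without overlap, and 7 of the 12 had means below 1.5 times background. The part of these cells in the other differences was not tested. The 18 oligodendrocyte and myelin markers summed to 901 to 932 in flight and 850 to 919 on the ground, the 16 astrocyte markers to 747 to 858 and 704 to 823, and the 13 microglia markers to 338 to 371 and 367 to 386. Each of these ranges overlapped. Of the astrocyte markers 9 lay above 0 and 7 below, with 2 higher and 1 lower at that threshold (18.8%). Gfap, the astrocyte filament, and S100b, a calcium-binding protein, differed by 0.54 and 0.52 with overlapping groups, and Slc7a10, an amino acid transporter at 1.17 times background, by -0.66 with separate groups. Of the oligodendrocyte and myelin markers 1 was higher (5.56%) and of the microglia markers none differed at that threshold. Of 13 interneuron markers 1 was lower (7.69%), Gad2 at -0.50. Of 12 mural and meningeal markers 1 was higher and 1 lower (16.7%), and of 7 choroid plexus and ependymal markers 1 was higher (14.3%). Ptgds, a prostaglandin synthase of meninges and glia, was the higher mural and meningeal marker, at 86.9, 93.4 and 108 against 80.0, 46.7 and 57.3. The CA1 pyramidal markers summed to 750 to 783 and 685 to 803, with 2 of 10 higher (20%), and neither the 10 granule nor the 10 CA2 and CA3 markers had any at that threshold.

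The flight effect was then set beside that in saline-treated mice, which shared no mouse with the BuOE groups. Under saline 22 genes (0.139%) were called, 20 higher and 2 lower in flight. Arc fell under both treatments, with 145, 109 and 121 in FLT-SAL and 179, 273 and 173 in GC-SAL (log2 fold change -0.71, limma Benjamini-Hochberg adjusted p = 0.0320). The difference between its 2 flight effects was -0.27, with an adjusted p of 0.947 for the interaction. Of the other 6 genes called under BuOE, Cpne7 was called under saline as well, in the opposite direction. Dbp and Kcnt1 stood at 0.52 and -0.17 under saline, Hspa8, Slc4a2 and Elof1 at -0.13, -0.32 and -0.18, and none of these 5 was called there or had an interaction past the threshold. The list medians under saline were 0.24 for synaptic vesicle, 0.24 for calcium, 0.25 for glycolysis and -0.19 for immediate early genes. They were -0.03 for chaperone, -0.11 for unfolded protein and 0.02 for endothelial genes, beside 0.02 over all genes. Differences between list medians were not tested.

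Cpne7 was the 1 gene of 15782 (0.00634%) that passed the test for a different flight effect under BuOE and saline. It was at 56.5, 84.2 and 98.5 in FLT-SAL and 143, 147 and 322 in GC-SAL, so that all flown mice were below all ground mice under saline and above them under BuOE. The flight effect was -1.27 under saline and 1.06 under BuOE, an interaction of 2.33 log2 (limma, Benjamini-Hochberg adjusted p = 1.34e-07). Next in order were Lama2 (1.86, adjusted p = 0.124), Gfra2 (-1.60), Olfr1246 (1.51) and Olfr1107 (-1.49) by limma with Benjamini-Hochberg adjustment. These 4 had means below 1.5 times background and did not pass. Without adjustment 851 genes (5.39%) had an interaction p below 0.05.

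**Figure D4:**
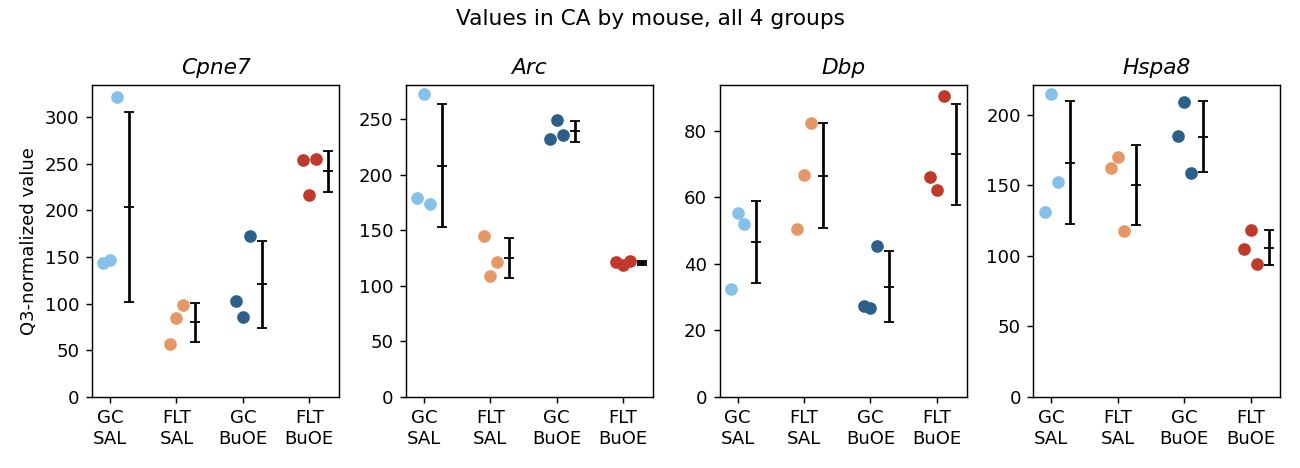
Q3-normalized value in CA of Cpne7, Arc, Dbp and Hspa8 in each mouse of the 4 groups, with the mean and SD beside the 3 points of a group. Cpne7 was lower in flight under saline and higher under BuOE, while Arc was lower in flight under both.

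The 20 genes called higher under saline all had a difference above 0 under BuOE as well, with a median of 0.24 against 0.81 under saline. Since they were chosen for their values under saline, the smaller values in other mice are a description, and none of the 20 passed the interaction test after adjustment. Without adjustment 18 of the 22 saline calls had an interaction p below 0.05, a count that rests in part on the values they were chosen by. Of the 22 saline calls 21 had the same sign under BuOE, the exception being Cpne7, against 53% of all genes. Pearson's r between both sets of log2 fold changes was 0.0931 across genes, which are not independent replicates. Ptgds had the largest flight effect of the 20, at 1.43 ± 0.18 under saline and 0.67 ± 0.18 under BuOE, where it missed the threshold (limma, Benjamini-Hochberg adjusted p = 0.213). Bcan, a brain extracellular matrix proteoglycan, was at 0.83 and 0.56, and Prrt2, a presynaptic protein, at 0.84 and 0.38. Nfx1 and AI593442 (named after their values were seen) were at 0.01 and 0.08 under BuOE and at 0.96 and 1.06 under saline.

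**Figure D5:**
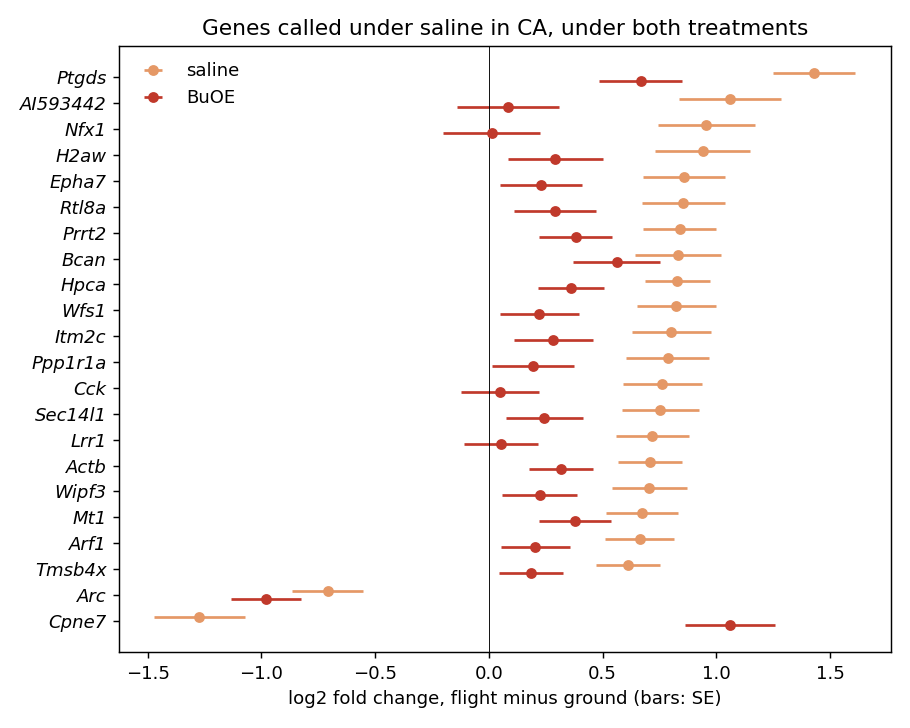
Log2 fold change of flight against ground in CA, with its SE, for the 22 genes called under saline, under saline (orange) and under BuOE (red). The red points lie nearer 0 than the orange ones for 21 genes, Arc being the exception, and on the other side of 0 for Cpne7.

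Genes that the study singled out for CA were read here under BuOE. It chose them on the saline samples of this series, except Prkca, which it chose with the FLT-BuOE AOIs compared here as well, so that its value is not independent of the choice. Besides Ptgds and Cpne7, Cdkn2d, an inhibitor of cyclin-dependent kinases, was at 23.5, 40.0 and 24.4 in flight and 44.2, 22.7 and 29.2 on the ground. Msrb1 (a methionine sulfoxide reductase), Bsph1 and Prkca (a protein kinase C) differed by 0.38, -0.24 and -0.02, and the groups of all 4 genes overlapped. Of 13 genes that it linked to neurological disease, Sncb and Actb were higher and Arc and Nfil3 lower at an unadjusted p below 0.05. This is 30.8% against 7.52% of all genes. Actb and the other 9 had groups that overlapped.

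In DG of the same mice 6 genes (0.0380%) passed an adjusted p of 0.05, and none of the 7 CA genes was among them. A test of the difference between CA and DG, with the mouse as a random effect, found no gene at an adjusted p below 0.05 by limma, against 1040 genes (6.59%) at an unadjusted p below 0.05. The 5 genes with the smallest p were Olfr1246, Fam241b, Adam17, Cacna1h and Hbs1l, with CA minus DG differences of 1.5, 1.35, 1.75, 1.10 and 0.96 and adjusted p from 0.216 to 0.390 (limma, Benjamini-Hochberg). Cpne7, Kcnt1 and Slc4a2 differed between CA and DG by 1.12, 1.18 and -1.14, each with a limma Benjamini-Hochberg adjusted p of 0.390. In DG itself they were at -0.06, -0.07 and 0.01. The negative-control value of these mice was 16.1 to 20.9 in the CA AOIs and 9.24 to 12.3 in the DG AOIs. For genes near background the log2 differences of the 2 regions are therefore not on a like scale, and the part of this was not tested. For Arc the CA minus DG difference was -0.67 (limma, Benjamini-Hochberg adjusted p = 0.597). The plain difference for Arc was -0.31 in DG and -0.33 in FCT, with groups that overlapped in both, and -1.0 in CT, where Arc was at 139 to 203 in flight and 302 to 379 on the ground.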

How the data were processed

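GeoMx whole-transcriptome profiles of 48 AOIs from 12 mice were used, and groups came from the labels. The authors made probe counts with the GeoMx NGS Pipeline (2.3.4 in the file headers), normalized them to the upper quartile (Q3) in the GeoMx DSP Control Center and deposited 1 Q3-normalized signal table a region. The raw count files, also deposited by the authors, name probes. Counts of 15777 genes were recovered by matching their 48 values to 1 probe. The authors' tables of log2 fold changes and p-values were not used. They cover FLT-SAL against GC-SAL and BuOE against saline, flown and on the ground.

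Log2(value + 1) of the 12 CA AOIs entered 1 limma (3.58.1) fit with group as factor, 8 residual degrees of freedom and a mean-variance trend. Fold changes are on this scale, which understates changes of low genes. Calls needed a Benjamini-Hochberg adjusted p below 0.05 over 15782 genes and a change beyond 0.585 (1.5-fold), without the fold for the interaction and for CA minus DG (24 AOIs, mouse as random effect). The AOI of a mouse was the replicate. EdgeR (4.0.16) and DESeq2 (1.42.0) on counts were alternatives. The tests were tried on simulated counts. No filter was applied, and each group held 3 mice. The SE, interval and p of a gene use 1 spread shared by all groups of the fit and moderated toward the trend across genes. They are therefore not the spread of the 3 mice of a group. Their degrees of freedom add a prior part, estimated across genes, to the 8 residual ones.

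Named genes were the 12 with the largest change in each direction among calls with separate groups, filled up by smallest unadjusted p, up to 4 a list by unadjusted p, those the study named for CA, the 5 with the smallest p in the interaction and in CA minus DG, and 5 of the saline calls. Members and lists were chosen with earlier results of these data known. Symbols were matched to GENCODE M21 and RefSeq (GRCm38). Figures were drawn with matplotlib.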

Additional observations from a re-analysis of the deposited data

Results flagged for a closer look

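Cpne7 had opposite flight effects in CA under BuOE and under saline, and the difference was tested with an interaction term (2.33 log2, limma with Benjamini-Hochberg adjusted p = 1.34e-07). It was lower in 3 of 3 flown mice under saline and higher in 3 of 3 under BuOE than in every ground mouse of the same treatment. Each of the 4 groups was on its own slide, so slide and group cannot be told apart here. The interaction ran from 1.95 (without GC-SAL mouse 3, at 322 the highest of all 12 mice) to 2.63 in refits without 1 mouse, and all 12 refits kept the call. It lost the call with DESeq2 (adjusted p = 0.170) and without the mean-variance trend (limma, adjusted p = 0.239).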

How the results depend on the processing

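The count of 7 called genes became 20 with edgeR and TMM scaling, 19 with edgeR and upper-quartile scaling, 1 with DESeq2, 11 with a pseudocount of 5 and 0 without the mean-variance trend (limma, 1099 genes at an unadjusted p below 0.05), and ran from 1 to 12 in refits without 1 mouse. Arc was called in all of these but the fit without the trend, and it was the 1 gene that DESeq2 called. With background subtracted, the median of all genes moved to 0.21 and the calls were 7 higher and 3 lower, against 3 and 4. Of the gene differences, those near 0 changed sign: with background subtracted Cdkn2d was at 0.056 and Prkca at 0.58, and without 1 mouse Bsph1 ran from -0.59 to 0.12, Cdkn2d from -0.36 to 0.14 and Prkca from -0.58 to 0.41. The medians of the immediate early, chaperone, unfolded protein, synaptic vesicle, calcium, glycolysis and endothelial lists kept their sign in all of these settings, and the endothelial median became -0.78 with background subtracted. The 6223 genes below 1.5 times background limit what the depth can show.

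The interaction count of 1 became 4 and 3 with edgeR (TMM and upper-quartile), 0 with DESeq2 (232 genes at an unadjusted p below 0.05) and 0 without the trend (809), and 1 to 4 without 1 mouse. The CA minus DG count of 0 was 0 to 3 without 1 mouse, with 3 genes without FLT-BuOE mouse 1.

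Replicate numbers do not pair the mice: deviations of same-numbered mice correlated at 0.0334, 0.0327 and 0.00668. With the replicate block 15 genes were called under BuOE, the interaction kept 1 and CA minus DG 0.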
